A study of Mus musculus with 6 samples.

Results

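Presynaptic vesicle release genes were followed in the hippocampus of C57BL/6 J mice after knockdown of hepaCAM, a cell adhesion molecule that astrocytes carry at their surface. The set holds 38 genes out of the 29872 genes listed in the files. They were chosen by name for the role of the protein: SNAREs, their regulators, active zone scaffolds, calcium sensors and vesicle proteins. The choice was made with earlier results of these data known, so shares of members called are described and not tested. For knockdown (shHepaCAM, 3 libraries), a short hairpin RNA against Hepacam was brought into the CA1 field on both sides by AAV, a viral carrier of genes. The group it was set against (shControl, 3 libraries) is labelled wild type, and the labels do not say whether those mice received a vector, which cells the virus entered, or how old the animals were. RNA came from hippocampal tissue and not from sorted cells, so a neuronal transcript could be lower because fewer neurons were sampled or because each held less of it, and these cannot be told apart. Whether each library is a mouse of its own is not in the labels, and the p-values then rest on a spread between libraries that may be technical.

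Neurons release transmitter when a vesicle docks at the active zone, the SNARE protein VAMP on the vesicle zips together with syntaxin and SNAP25 on the plasma membrane, and calcium bound by synaptotagmin triggers fusion. Munc13 and RIM proteins prime docked vesicles, Bassoon and Piccolo scaffold the active zone, complexins clamp and promote fusion, and NSF with its SNAP partners takes spent SNARE complexes apart. Synapsins tether the reserve of vesicles, and dynamin pinches off membrane that is taken back. In the hippocampus these transcripts come mainly from pyramidal, granule and inhibitory neurons, while a few, such as Syt11 and Sypl, are also made by other cells.

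Of the 37 members tested, 7 fell in knockdown hippocampus and 0 rose at a limma adjusted p of 0.05. The fallen genes were Bsn, Snap25, Slc17a7, Syn2, Syngr1, Erc2 and Syngr3, spread over the active zone, the SNAREs, the glutamate loader, a synapsin and both synaptogyrins of the set. They make up 18.9% of the members tested, against 1.84% of the 13864 genes tested that were called lower and 4.23% that were called higher. The median log2 change of the members was -0.19, beside 0.05 for all genes tested, and 29 of the 37 were below 0. The count of 7 rested on every control library: it was 1 (Bsn) without shControl replicate 1 or 2, 0 without shControl replicate 3 and 1 (Bsn) without shHepaCAM replicate 3. Calls were lost over the whole table in these fits. Genes called lower went from 255 to 42, 27 and 19 without shControl replicates 1, 2 and 3, and to 79 without shHepaCAM replicate 3. The members' median was then -0.19, -0.23, -0.21 and -0.23. Scaling changed the balance over all genes, with 255 lower and 587 higher as deposited, 341 and 390 after quantile normalization, and 347 and 336 after scaling libraries to a common median, while the members called lower numbered 7, 9 and 7. Members of the same machinery differed in size of change: Vamp2, Cplx1, Rab3a and Napb had log2 changes between -0.08 and -0.05, which were above 0 without shHepaCAM replicate 2 and, for Vamp2 and Rab3a, after quantile normalization. Hepacam itself, the targeted gene, measured 24.4, 22.6 and 20.9 RPKM in shHepaCAM replicates 1, 2 and 3, against 37.3, 33.4 and 35.9 RPKM in shControl replicates 1, 2 and 3 (limma log2 change -0.63, adjusted p = 0.00924; exact two-sided permutation p = 0.1, the smallest that 3 libraries against 3 allow).

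**Figure D1:**
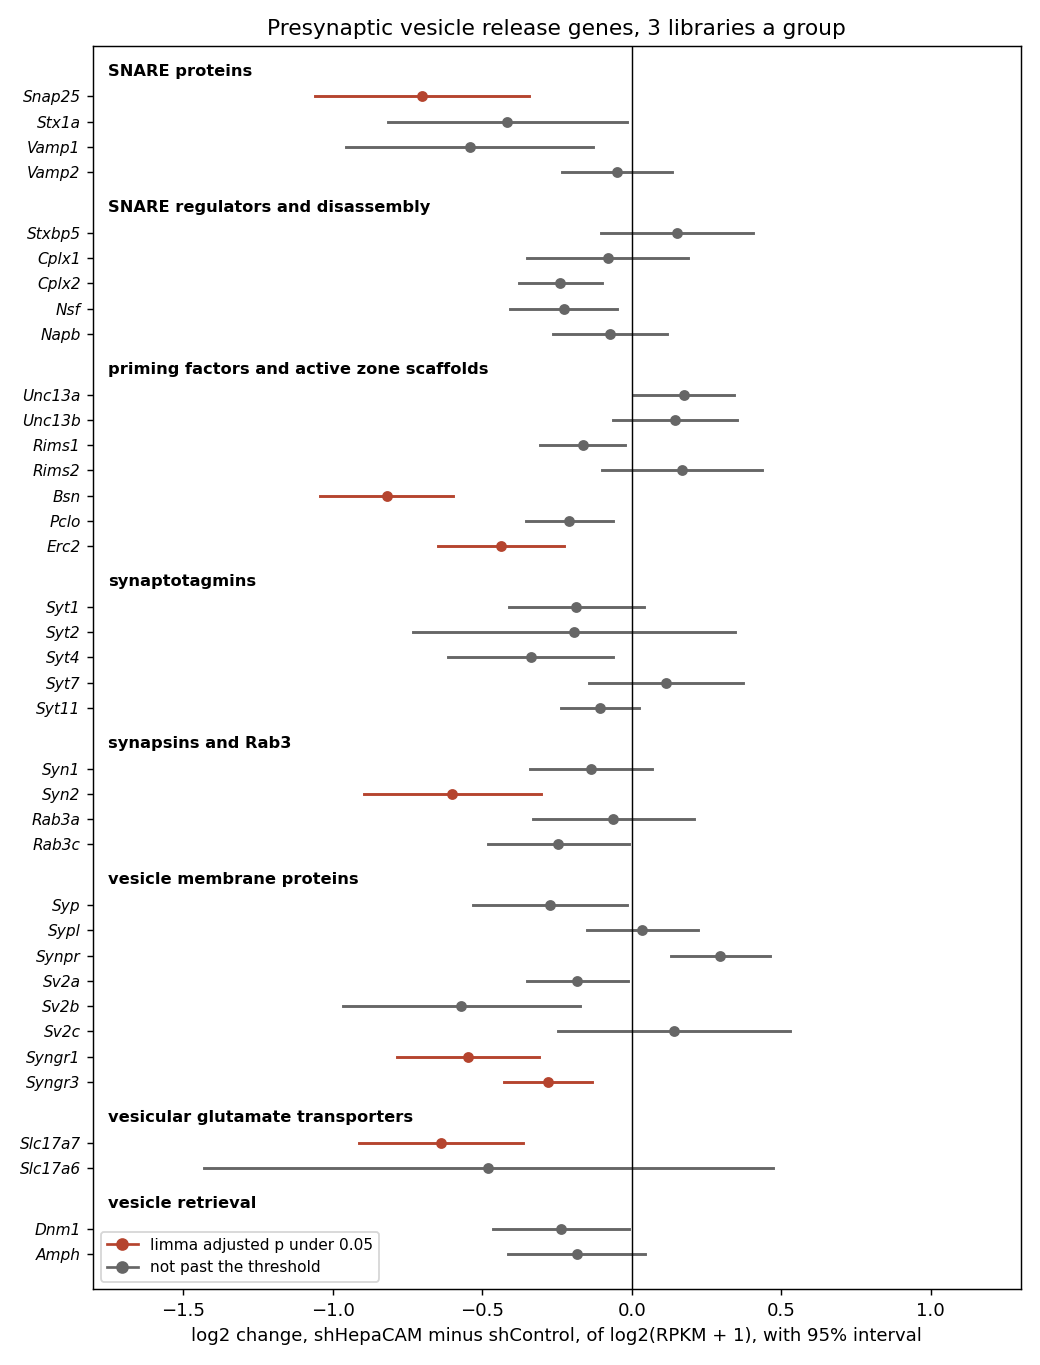
Log2 change of each member tested (x axis, shHepaCAM minus shControl on the log2(RPKM + 1) scale, with the 95% interval from limma), grouped by role down the y axis, n = 3 libraries a group. The 7 members past the threshold lie between -0.82 and -0.28, and the intervals of Vamp2, Cplx1, Rab3a and Napb span 0.

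The values are RPKM, reads scaled by gene length and by library depth, so levels can be compared between genes. Depth lay between 15816576 and 16384937 reads in knockdown libraries and between 14903198 and 17341842 reads in control libraries. Reads behind the members ran from 103 for Syn3 to 33019 for Slc17a7 in a library, so counting error is small for all but a few. Log2 changes are differences of log2(RPKM + 1), a scale that shrinks the change of genes near 1 RPKM. Hippocampal markers were present in all libraries: summed over their lists, CA1 markers held 204 to 259 RPKM in knockdown and 192 to 197 RPKM in control libraries, and dentate granule markers 129 to 170 RPKM in knockdown and 128 to 162 RPKM in control libraries. Choroid plexus markers ran from 32.8 to 2354 RPKM in knockdown and from 71.6 to 4327 RPKM in control libraries, lowest in shHepaCAM replicate 3 and shControl replicate 1. With both of those libraries left out, 0 members passed, and 17 of all genes tested (0.122%) were called lower. The part of choroid plexus in the members' changes was not tested.

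Promoter sequences were looked at because relatives such as Syn1 and Syn2 fell on different sides of the test's threshold. The 250 bases before the annotated start are shown for Bsn, Slc17a7, Syngr1 and Syn2, which fell, and for Syn1, the synapsin that did not pass the test, written from 5′ to 3′ on the gene's strand (RefSeq, build GRCm38.p6, while the deposited files were made on mm39). Syn2 has another promoter in the table, not shown, and the bases just after the Slc17a7 start were found in no GENCODE M21 transcript of that gene, as for 10 of the 41 member promoters, so distances in Slc17a7 hold for the RefSeq start alone. Capitals mark a match to a GC box, to a cyclic AMP response element or to the left part of the REST element.
Bsn (chr9:108190384-108190633, minus strand): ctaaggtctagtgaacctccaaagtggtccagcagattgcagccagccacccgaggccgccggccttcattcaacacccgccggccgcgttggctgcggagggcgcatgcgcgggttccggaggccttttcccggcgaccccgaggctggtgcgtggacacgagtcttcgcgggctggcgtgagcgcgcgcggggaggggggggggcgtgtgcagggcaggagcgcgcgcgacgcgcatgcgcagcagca
Slc17a7 (chr7:45163671-45163920, plus strand): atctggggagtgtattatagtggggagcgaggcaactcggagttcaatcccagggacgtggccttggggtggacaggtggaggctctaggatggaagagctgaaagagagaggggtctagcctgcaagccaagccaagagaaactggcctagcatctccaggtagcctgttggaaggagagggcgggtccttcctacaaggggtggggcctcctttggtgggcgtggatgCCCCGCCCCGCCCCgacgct
Syngr1 (chr15:80091084-80091333, plus strand): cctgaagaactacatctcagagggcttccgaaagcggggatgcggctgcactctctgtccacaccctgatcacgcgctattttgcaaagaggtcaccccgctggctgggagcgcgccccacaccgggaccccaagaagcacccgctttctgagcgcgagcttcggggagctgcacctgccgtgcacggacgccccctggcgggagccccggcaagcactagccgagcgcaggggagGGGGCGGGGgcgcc
Syn2 (chr6:115134652-115134901, plus strand): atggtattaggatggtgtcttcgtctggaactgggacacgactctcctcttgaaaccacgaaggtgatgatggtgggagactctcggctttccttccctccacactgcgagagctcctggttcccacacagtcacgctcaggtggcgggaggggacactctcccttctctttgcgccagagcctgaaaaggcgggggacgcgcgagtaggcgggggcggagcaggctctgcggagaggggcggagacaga
Syn1 (chrX:20920919-20921168, minus strand): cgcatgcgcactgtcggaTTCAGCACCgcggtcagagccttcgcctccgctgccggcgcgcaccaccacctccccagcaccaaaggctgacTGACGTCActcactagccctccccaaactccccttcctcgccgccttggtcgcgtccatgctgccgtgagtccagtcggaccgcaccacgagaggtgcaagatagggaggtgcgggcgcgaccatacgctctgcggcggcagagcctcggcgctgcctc

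RefSeq promoters were found for 31 of the 38 members, and for 5 of the 7 that fell. The GC box GGGGCGGGG, searched on both strands, stood in 10 of 41 member promoters, among them Slc17a7, with overlapping matches starting 20 and 15 bases before the start, and Syngr1, with a match starting 14 bases before it. It stood in 10.4% of 32851 promoters of the same length. The cyclic AMP response element TGACGTCA and the left part of the REST element, TTCAGCACC, each stood in 1 member promoter, that of Syn1, 159 and 232 bases before the start, and in 1.55% and 0.301% of all promoters. The EGR element GCGTGGGCG stood in 1 member promoter, that of Unc13a (0.536% of all), and the sterol regulatory element in 0 (0.0731% of all). Motifs were counted where they overlapped one another. None of these motifs stood in the printed windows of Bsn and Syn2. Median GC content was 64.8% over the 6 promoters of members that fell, 58.8% over the 35 promoters of the other members and 52.4% over all promoters.

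Of the active zone scaffolds, Bsn and Erc2 fell, and the median of the 7 priming and active zone members was -0.16. Bsn, on chromosome 9, had the most negative log2 change of the members tested and encodes Bassoon, a giant scaffold that ties vesicles to the release site. It measured 19.8, 16.1 and 15.3 RPKM in shHepaCAM replicates 1, 2 and 3, against 30.5, 31.4 and 30.2 RPKM in shControl replicates 1, 2 and 3. The groups did not overlap, and the knockdown libraries varied more than the control libraries. The mean was 17.1 ± 2.41 RPKM in knockdown and 30.7 ± 0.64 RPKM in control libraries (SD, n = 3 each), 44.4% lower. On the log2 scale the change was -0.82 with an SE of 0.10 (limma adjusted p = 0.00901). Between 3986 and 8685 reads stood behind each value. Without shControl replicate 3 the change was -0.83 with a limma adjusted p of 0.0501.

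Erc2, which encodes the ELKS family scaffold CAST, also fell. It measured 12.3, 9.70 and 11.6 RPKM in shHepaCAM replicates 1, 2 and 3, against 15.9, 15.1 and 15.4 RPKM in shControl replicates 1, 2 and 3, with no overlap. The log2 change was -0.44 (SE 0.09, limma adjusted p = 0.0384). Pclo, which encodes Piccolo, the sister scaffold of Bassoon, had 7.18, 7.64 and 7.59 RPKM in knockdown and 8.98, 8.52 and 8.85 RPKM in control libraries. Those groups did not overlap either, but the log2 change of -0.21 missed the threshold (SE 0.06, limma adjusted p = 0.0974). Rims1, for the RIM1 scaffold that recruits calcium channels, had a log2 change of -0.16 (limma adjusted p = 0.158), again with all knockdown libraries below all control libraries.

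The priming factors Unc13a and Unc13b had positive log2 changes, and neither passed. Unc13a, which encodes Munc13-1, the main priming factor of excitatory synapses, had 37.2, 41.4 and 43.8 RPKM in knockdown and 37.0, 35.8 and 35.1 RPKM in control libraries. Its groups did not overlap, by a narrow margin between shHepaCAM replicate 1 and shControl replicate 1, and the log2 change was 0.17 (SE 0.07, limma adjusted p = 0.191). Unc13a shares 495 exonic bases with Colgalt1 on the other strand, and since no source used here gives the strand setting of the counting, reads there cannot be assigned. Unc13b, for Munc13-2, was at 3.06, 3.33 and 3.72 RPKM in knockdown and 2.91, 2.97 and 2.94 RPKM in control libraries (log2 change 0.15, limma adjusted p = 0.357). Rims2, the second RIM gene, overlapped between groups with a log2 change of 0.17 (limma adjusted p = 0.41).

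Among the SNAREs, Snap25 fell. It encodes the plasma membrane SNARE SNAP25, and is among the most abundant neuronal transcripts. Snap25 measured 173, 113 and 163 RPKM in shHepaCAM replicates 1, 2 and 3, against 240, 235 and 244 RPKM in shControl replicates 1, 2 and 3. Groups did not overlap, and shHepaCAM replicate 2 lay far below the other knockdown libraries. The means were 150 ± 32.4 RPKM in knockdown and 240 ± 4.66 RPKM in control libraries (SD, n = 3 each), 37.6% lower. On the log2 scale the change was -0.70 with an SE of 0.15 (limma adjusted p = 0.0441). Without shHepaCAM replicate 2 the change was -0.51 with a limma adjusted p of 0.0164.

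Stx1a, for syntaxin-1A, the other plasma membrane SNARE, had 36.7, 21.8 and 28.4 RPKM in knockdown and 35.6, 41.7 and 37.4 RPKM in control libraries. The groups overlapped through shHepaCAM replicate 1 (log2 change -0.42, SE 0.17, limma adjusted p = 0.193). Without that library the change was -0.60 and passed (limma adjusted p = 0.0469). Vamp2, for synaptobrevin-2, the main vesicle SNARE of forebrain, was at 275, 235 and 269 RPKM in knockdown and 261, 281 and 263 RPKM in control libraries, so the groups overlapped. Its log2 change was -0.05 (SE 0.08, 95% interval -0.23 to 0.13, limma adjusted p = 0.733).

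Vamp1, the synaptobrevin that prevails in brainstem and spinal cord, was far less abundant than Vamp2. It had 11.5, 8.36 and 10.01 RPKM in shHepaCAM replicates 1, 2 and 3, against 19.6, 12.5 and 13.3 RPKM in shControl replicates 1, 2 and 3. Groups did not overlap, and shControl replicate 1 lay above the other control libraries. The log2 change was -0.54 (SE 0.18, limma adjusted p = 0.12), and -0.35 without shControl replicate 1 (limma adjusted p = 0.196).

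Regulators of SNARE assembly and disassembly held 0 called members of 5. Over all genes tested 1.84% were called lower and 4.23% higher, so 0 of 5 lies near those shares. Cplx2, for complexin-2, had 248, 236 and 244 RPKM in knockdown and 292, 290 and 276 RPKM in control libraries, with no overlap. The log2 change of -0.24 narrowly missed the threshold, with an SE of 0.06 (limma adjusted p = 0.0601). Cplx1, for complexin-1, overlapped between groups at 285, 205 and 242 RPKM in knockdown and 256, 253 and 258 RPKM in control libraries. Nsf, the ATPase that pulls SNARE complexes apart, had 105, 88.4 and 103 RPKM in knockdown and 117, 115 and 116 RPKM in control libraries (log2 change -0.23, limma adjusted p = 0.129). Napb, for the NSF adaptor beta-SNAP, and Stxbp5, for tomosyn, an inhibitor of SNARE assembly, had log2 changes of -0.07 and 0.15 and overlapped between groups.

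Slc17a7 fell, and it was the most abundant member in control hippocampus. It encodes VGLUT1, which loads glutamate into vesicles of cortical and hippocampal excitatory neurons. Slc17a7 measured 270, 196 and 222 RPKM in shHepaCAM replicates 1, 2 and 3, against 339, 353 and 371 RPKM in shControl replicates 1, 2 and 3. The groups did not overlap, and the 3 knockdown libraries lay well apart from one another. Means were 229 ± 37.5 RPKM in knockdown and 355 ± 16.0 RPKM in control libraries (SD, n = 3 each), 35.3% lower. Its log2 change was -0.64 with an SE of 0.12 (limma adjusted p = 0.0289).

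Slc17a6, for VGLUT2, the transporter of thalamic and other subcortical excitatory neurons, was low. It measured 1.80, 1.88 and 1.46 RPKM in shHepaCAM replicates 1, 2 and 3, against 6.46, 1.13 and 2.39 RPKM in shControl replicates 1, 2 and 3. The value in shControl replicate 1 set the control mean: the log2 change was -0.48 with it (SE 0.40, limma adjusted p = 0.508) and 0.01 without it (limma adjusted p = 0.981). Over the whole thalamus and habenula list of 10 genes, the sum was 27.8 to 44.9 RPKM in knockdown and 30.1 to 44.2 RPKM in control libraries. Of these 10 genes, 4 were highest and 1 was lowest of the 6 libraries in shControl replicate 1. The part of neighbouring tissue in the Slc17a6 values was not tested.

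**Figure D2:**
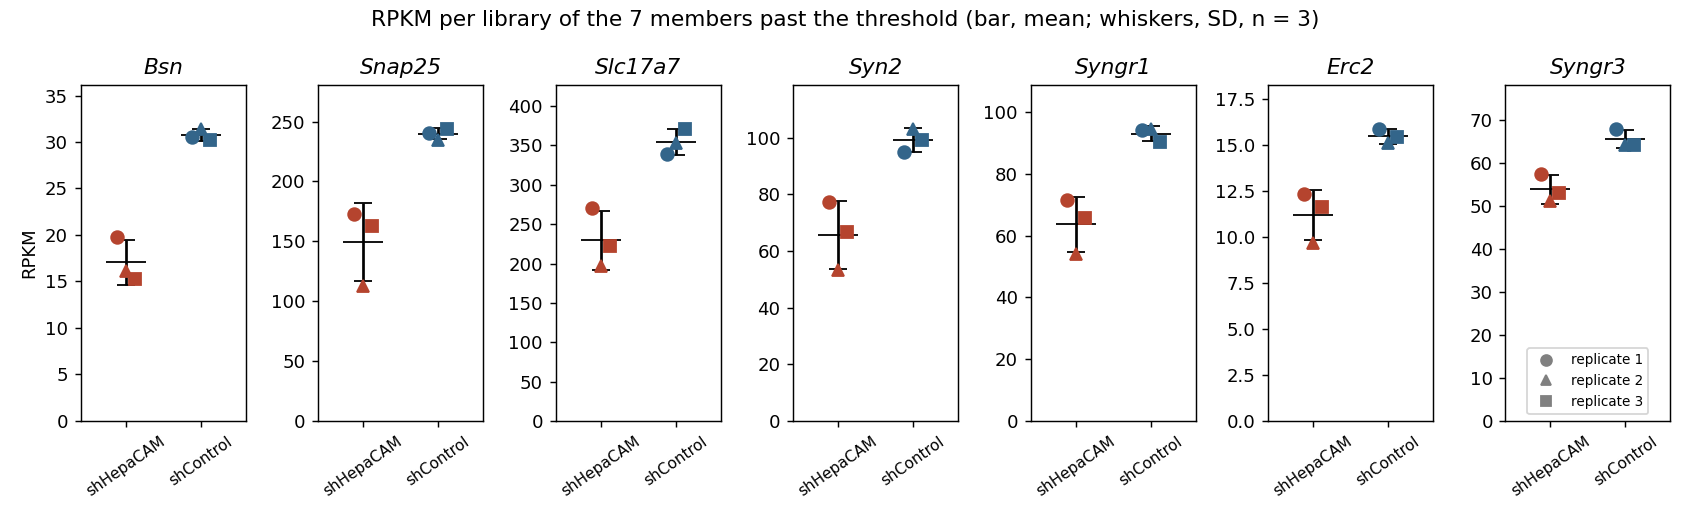
RPKM (y axis, from 0) of the 7 members past the threshold in the 3 shHepaCAM and the 3 shControl libraries (x axis). Each marker is a library, its shape the replicate number; bars are means and whiskers SD. No knockdown library reaches a control library in any panel, and shHepaCAM replicate 2 is the lowest in all panels but that of Bsn.

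Calcium sensors of the synaptotagmin family held 0 called members of 5, near the 1.84% called lower and 4.23% called higher over all genes tested. Syt1, for synaptotagmin-1, the sensor of fast release in forebrain, had 120, 94.6 and 117 RPKM in knockdown and 122, 124 and 129 RPKM in control libraries (log2 change -0.18, SE 0.10, limma adjusted p = 0.287). Syt11, a synaptotagmin that does not bind calcium, was about as abundant, at 131, 123 and 130 RPKM in knockdown and 138, 135 and 139 RPKM in control libraries. In both genes all knockdown libraries lay below all control libraries, although neither passed. Syt4, a synaptotagmin with a weakened calcium site, had 20.4, 14.8 and 18.6 RPKM in knockdown and 21.2, 22.5 and 24.6 RPKM in control libraries, also without overlap (log2 change -0.34, limma adjusted p = 0.139). Syt7, a high-affinity sensor of asynchronous release and facilitation, overlapped between groups at 75.5 ± 10.3 RPKM in knockdown and 69.3 ± 5.53 RPKM in control libraries (SD, n = 3 each). Syt2, the fast sensor of hindbrain and of some inhibitory neurons, had 2.71, 3.04 and 2.40 RPKM in knockdown and 5.17, 2.197 and 2.86 RPKM in control libraries. As with Slc17a6, shControl replicate 1 was the highest, and the log2 change was -0.19 with it and 0.08 without it.

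Of the synapsins, only Syn2 passed, and its difference from Syn1 was not tested. Syn2, which tethers vesicles in the reserve pool, measured 77.3, 53.3 and 66.7 RPKM in shHepaCAM replicates 1, 2 and 3, against 94.9, 103 and 99.3 RPKM in shControl replicates 1, 2 and 3. The groups did not overlap, and the log2 change was -0.60 (SE 0.13, limma adjusted p = 0.0405). Syn1, the more abundant synapsin, had 185, 153 and 164 RPKM in knockdown and 170, 190 and 191 RPKM in control libraries, with overlap through shHepaCAM replicate 1 (log2 change -0.13, SE 0.09, limma adjusted p = 0.387). Syn3, the synapsin of immature neurons, lay under the filter of 1 RPKM and was not tested, at 0.62, 1.01 and 0.76 RPKM in knockdown and 0.64, 0.60 and 0.56 RPKM in control libraries. Its exons share 1733 bases with Timp3 on the other strand, and those of Syn2 share 90 bases with Timp4, so reads there cannot be assigned. Rab3a, the GTPase that marks vesicles for docking, had 278, 205 and 263 RPKM in knockdown and 250, 263 and 260 RPKM in control libraries, with a log2 change of -0.06 (limma adjusted p = 0.78). Rab3c, a less abundant form, had 21.9, 17.2 and 22.1 RPKM in knockdown and 24.8, 24.9 and 23.0 RPKM in control libraries, without overlap (log2 change -0.25, limma adjusted p = 0.193).

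Both synaptogyrins of the set, tetraspan proteins of the vesicle membrane, fell. Syngr1 measured 71.5, 54.0 and 65.7 RPKM in shHepaCAM replicates 1, 2 and 3, against 94.1, 94.6 and 90.3 RPKM in shControl replicates 1, 2 and 3. With no overlap, its log2 change was -0.55 (SE 0.10, limma adjusted p = 0.0298). Syngr3 had 57.5, 51.0 and 53.0 RPKM in knockdown and 68.0, 64.3 and 64.3 RPKM in control libraries, a smaller and barely called change of -0.28 (SE 0.06, limma adjusted p = 0.0486). Without shHepaCAM replicate 2 it was -0.24 and missed the threshold (limma adjusted p = 0.0861).

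Other vesicle membrane proteins did not pass. Syp, for synaptophysin, the classic vesicle marker, had 123, 92.1 and 120 RPKM in knockdown and 137, 132 and 132 RPKM in control libraries, with no overlap (log2 change -0.27, SE 0.11, limma adjusted p = 0.187). Sv2b, a vesicle glycoprotein, had 30.7, 18.8 and 28.0 RPKM in knockdown and 34.5, 39.7 and 40.03 RPKM in control libraries. Its log2 change of -0.57 was about as large as that of Syngr1, but shHepaCAM replicate 2 lay far from the others (SE 0.17, limma adjusted p = 0.0975). Sv2a, the target of the drug levetiracetam, had 90.5, 78.2 and 83.8 RPKM in knockdown and 101, 93.5 and 92.2 RPKM in control libraries (log2 change -0.18, limma adjusted p = 0.18). Sv2c, the form of basal ganglia, and Sypl, a synaptophysin relative found outside neurons too, overlapped between groups with log2 changes of 0.14 and 0.04, of which that of Sypl was -0.04 under either other scaling.

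Synpr was the member with the largest positive change. It encodes synaptoporin, a synaptophysin relative abundant in mossy fibre terminals and in some interneurons. Synpr measured 15.0, 17.2 and 15.9 RPKM in shHepaCAM replicates 1, 2 and 3, against 13.4, 13.1 and 12.2 RPKM in shControl replicates 1, 2 and 3. All knockdown libraries lay above all control libraries, and the log2 change of 0.30 narrowly missed the threshold (SE 0.07, limma adjusted p = 0.055). It passed with protein-coding genes only, with a filter at 5 RPKM and in limma-voom on whole reads (limma adjusted p of 0.0417, 0.0377 and 0.0342). Beside it, dentate granule markers had a median of 0.06 over 10 genes, 5 below 0 and 5 above. Of these, Trpc6 rose by 0.73, while Dsp had a log2 change of -0.74 and missed the threshold (limma adjusted p = 0.060). Interneuron markers had a median of -0.06 over 12 with 0 called. The part of these cell types in the Synpr values was not tested.

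Vesicle retrieval held 0 called members of 2, near the 1.84% called lower and 4.23% called higher over all genes tested. Dnm1, for dynamin-1, the GTPase that cuts endocytic necks, had 300, 232 and 271 RPKM in knockdown and 309, 316 and 315 RPKM in control libraries, with no overlap (log2 change -0.24, SE 0.10, limma adjusted p = 0.194). Amph, for amphiphysin, which brings dynamin to the membrane, had 50.2, 39.4 and 49.8 RPKM in knockdown and 53.2, 50.9 and 53.8 RPKM in control libraries (log2 change -0.18, limma adjusted p = 0.296).

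Counted without a test, 21 of the 37 members (56.8%) had all knockdown libraries below all control libraries, against 10.7% of all genes tested. The reverse held for 3 (8.11%), Unc13a, Unc13b and Synpr, against 20.9% of all genes tested. Besides the 7 called, 14 members thus separated downward without passing the test. At an unadjusted p of 0.05 in limma, 19 members were lower and 2 higher, against 7.92% and 16.3% of all genes tested.

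The changes were not of equal size in the knockdown libraries. The library shHepaCAM replicate 2 was the lowest of the 6 libraries in 24 of 37 members (64.9%), against 18% of all genes tested. The members' median, relative to the control mean of each gene, was -0.08, -0.33 and -0.16 in shHepaCAM replicates 1, 2 and 3, and between -0.02 and 0.02 in the control libraries. Over all genes tested the same median was 0.03, 0.08 and 0.03 in shHepaCAM replicates 1, 2 and 3. Replicate 2 also had the lowest sum of 16 pan-neuronal markers, at 1256 RPKM, with the knockdown libraries reaching 1572 RPKM and the control libraries 1675 to 1704 RPKM. None of those markers was at 0 in any library. Interneuron markers also had their lowest sum in shHepaCAM replicate 2, at 549 RPKM, most of it Sst and Cck. The knockdown libraries reached 784 RPKM for that list, and the control libraries held 724 to 756 RPKM. Without shHepaCAM replicate 2, 6 of the 7 members were still called lower and the members' median was -0.14.

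**Figure D3:**
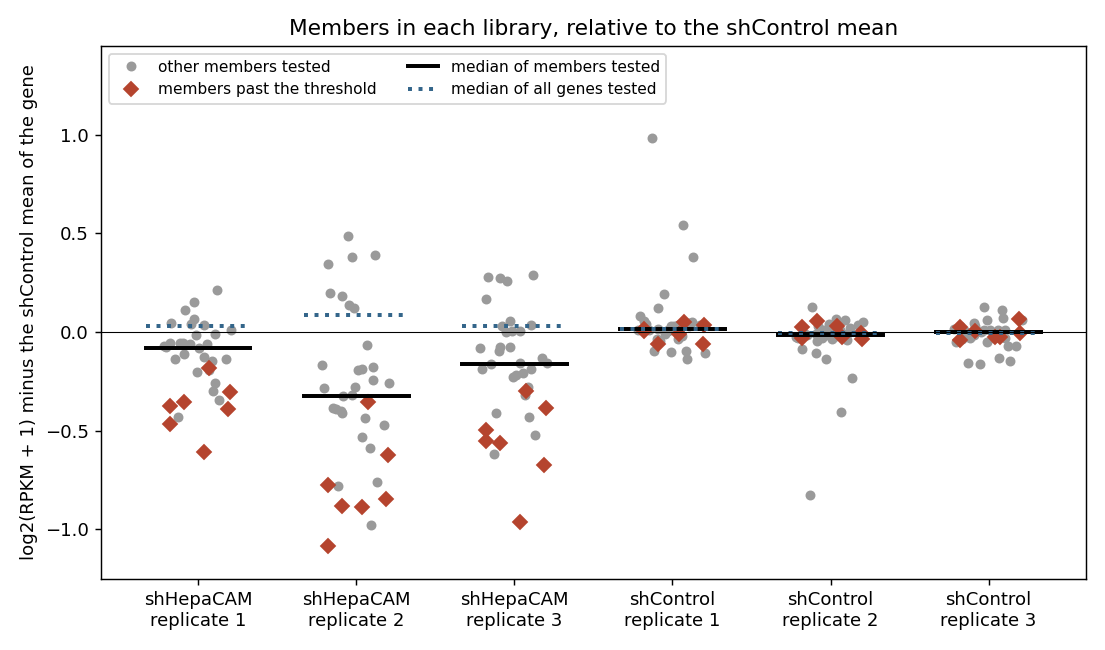
Each member tested in each library (x axis), as log2(RPKM + 1) minus the mean of the gene over the shControl libraries (y axis); diamonds are the 7 members past the threshold, solid lines the members' median and dotted lines the median of all genes tested. The members' medians are -0.08, -0.33 and -0.16 in shHepaCAM replicates 1, 2 and 3, below the dotted lines, and near 0 in the control libraries.

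The share of 1 gene in the summed RPKM of its family compares relatives within a library and needs no scaling between libraries. Families here hold members of the set only. Relatives outside it, such as Rims3, Rims4, Rab3b, Rab3d, Syngr2, Cplx3, Unc13c and Slc17a8, were left out of the sums. Among the RPKM of the synapsins, Syn2 took 29.4%, 25.7% and 28.8% in shHepaCAM replicates 1, 2 and 3, against 35.7%, 35.1% and 34.1% in shControl replicates 1, 2 and 3. Bsn took 73.4%, 67.9% and 66.8% of the Bsn and Pclo sum in knockdown, against 77.2%, 78.7% and 77.3% in control libraries. Neither share overlapped between groups. The share of Syngr1 in the Syngr1 and Syngr3 sum was 51.4% to 55.4% in knockdown and 58.1% to 59.6% in control libraries, also apart. Rims1 took 66.1% to 73.0% of both RIM genes in knockdown and 73.3% to 76.7% in control libraries, and Rab3c took 7.32% to 7.73% of both Rab3 genes in knockdown and 8.14% to 9.04% in control libraries. For Vamp1 the share was 3.44% to 4.01% in knockdown and 4.25% to 6.97% in control libraries. Sv2b was apart only by a hair, at 18.4% to 24.6% of the Sv2 sum in knockdown and 24.7% to 29.6% in control libraries. In 4 of the 11 families compared, complexins, Munc13 genes, glutamate transporters and synaptotagmins, no gene's share separated the groups. Shares were not worked out for families outside the set, so how often groups separate in this way over all genes is not known. A share shows unequal change only, and 3 libraries against 3 cannot give an exact permutation p under 0.1, so these shares were not tested.

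**Figure D4:**
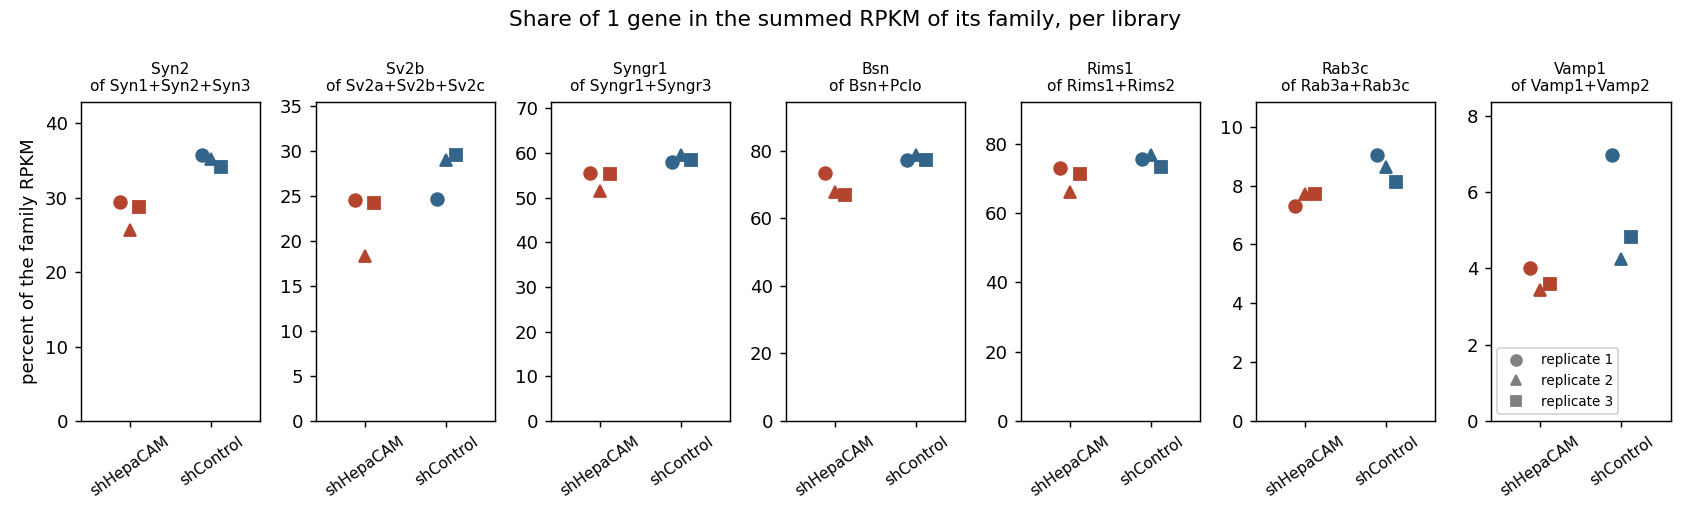
Percent of the summed RPKM of a gene family taken by 1 gene (y axis, from 0) in each shHepaCAM and shControl library (x axis; marker shape is the replicate number). Syn2 lies between 25.7% and 29.4% in knockdown and between 34.1% and 35.7% in control libraries. Families hold members of the set only. The 7 genes shown are those, among the 11 families compared, whose share was lower in every knockdown than in every control library. The separation seen is thus set by the choice of genes.

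The called members spanned a wide range of levels and sequence composition. Their mean in control libraries ran from 15.5 to 355 RPKM with a median of 93.0 RPKM, and that of the 30 other members tested from 2.94 to 313 RPKM with a median of 38.1 RPKM. Exon length was 2071 to 15938 bases (median 6791) for the 7 called members and 2189 to 22746 bases for the others. Median transcript GC content was 56.6% for the called members, from 38.7% in Snap25 to 59.8% in Bsn, and 48.4% for the others. With a trend over GC content and length removed from each library, 4 members were called lower: Bsn, Slc17a7, Syngr1 and Syngr3. Snap25, Erc2 and Syn2 then had log2 changes of -0.74, -0.47 and -0.65 (limma adjusted p of 0.062, 0.0587 and 0.0532).

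Presynaptic genes outside the set gave a mixed picture. The shares to set beside their counts are 1.84% called lower and 4.23% called higher over all genes tested. Of 36 other SNARE, priming and active zone genes tested, 0 passed in either direction, which lies near those shares, and their median was -0.01. At an unadjusted p of 0.05 in limma, 4 of them were lower and 2 higher, where 7.92% and 16.3% of all genes tested were. Of 31 other vesicle membrane and calcium sensor genes tested, 2 fell and 3 rose, with a median of -0.16. Of those described here, Syt13, a synaptotagmin that does not bind calcium, had 48.9, 42.5 and 43.4 RPKM in knockdown and 66.9, 61.1 and 63.9 RPKM in control libraries, and fell by 0.50 (SE 0.07, limma adjusted p = 0.0145). In the same list Syt5, Slc30a3, the vesicular zinc transporter ZnT3 of mossy fibres, and Syngr2, a synaptogyrin found mostly outside neurons, rose by 0.32, 0.46 and 0.71. Syngr1 and Syngr3 thus fell while Syngr2 rose. Syt5 missed the threshold after scaling libraries to a common median (limma adjusted p = 0.122). Over the 20 alternatives of the closing section, Syt5, Slc30a3, Syngr2 and Syt13 lost their calls in 11, 7, 8 and 4.

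Of 29 other endocytosis genes tested, 3 fell and 0 rose, beside 1.84% and 4.23% of all genes tested, with a median of -0.13. The 3 that fell were Ap2a2, a subunit of the clathrin adaptor AP2, Epn1, an epsin that bends membrane, and Snap91, for AP180, which sets vesicle size, by 0.62, 0.34 and 0.31 (limma adjusted p of 0.0168, 0.043 and 0.0447). The list had 0 called without any 1 of the control libraries and 1 without shHepaCAM replicate 3.

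Neuronal marker lists stood as follows, where 1.84% of all genes tested were called lower and 4.23% higher. Of 16 pan-neuronal markers, Tubb3 and Celf4 fell by 0.48 and 0.43 and 0 rose, with a median of -0.24, lower than that of the members. The markers differed: 12 were below 0 and 4 above, namely Rbfox3, Elavl3, Thy1 and Nefm at 0.01, 0.02, 0.07 and 0.10. Summed over the list, knockdown libraries held 1256 to 1572 RPKM and control libraries 1675 to 1704 RPKM. CA2 and CA3 pyramidal markers summed to 398 to 524 RPKM in knockdown and 648 to 681 RPKM in control libraries, with a median of -0.31 over 9 tested, of which Nptx1, a pentraxin released at synapses, fell by 1.04. Most of that sum was Nptx1 and Chgb, with means of 76.5 and 271 RPKM in knockdown and 156 and 347 RPKM in control libraries. Of the 9, 7 were below 0, among them Rgs14 at -0.06, and 2 above, Cacng5 and Amigo2 at 0.01 and 0.19. CA1 markers had a median of 0.12 and 0 called, and interneuron markers a median of -0.06 and 0 called. Microglia markers rose in 9 of 12 genes, among them Ctss and C1qc, those with the smallest p, at 1.01 and 0.92. Of the astrocyte markers, Slc1a2 fell by 0.37 and 0 of 12 rose. Lymphocyte and plasma cell markers rose in 5 of 6 genes tested, led by Igkc and Jchain, and summed to 514 to 1834 RPKM in knockdown and 5.17 to 6.93 RPKM in control libraries. Oligodendrocyte markers, with 0 of 10 called, summed to 1009 to 1519 RPKM in knockdown and 990 to 1241 RPKM in control libraries, highest in shHepaCAM replicate 2. With single libraries left out, any 1 of the control libraries took the pan-neuronal, other vesicle membrane and dentate counts and the astrocyte call to 0, while Nptx1 kept its call; microglia calls ran from 4 to 8 and lymphocyte calls from 1 to 6. What part these cell types had in the members' changes was not tested.

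**Figure D5:**
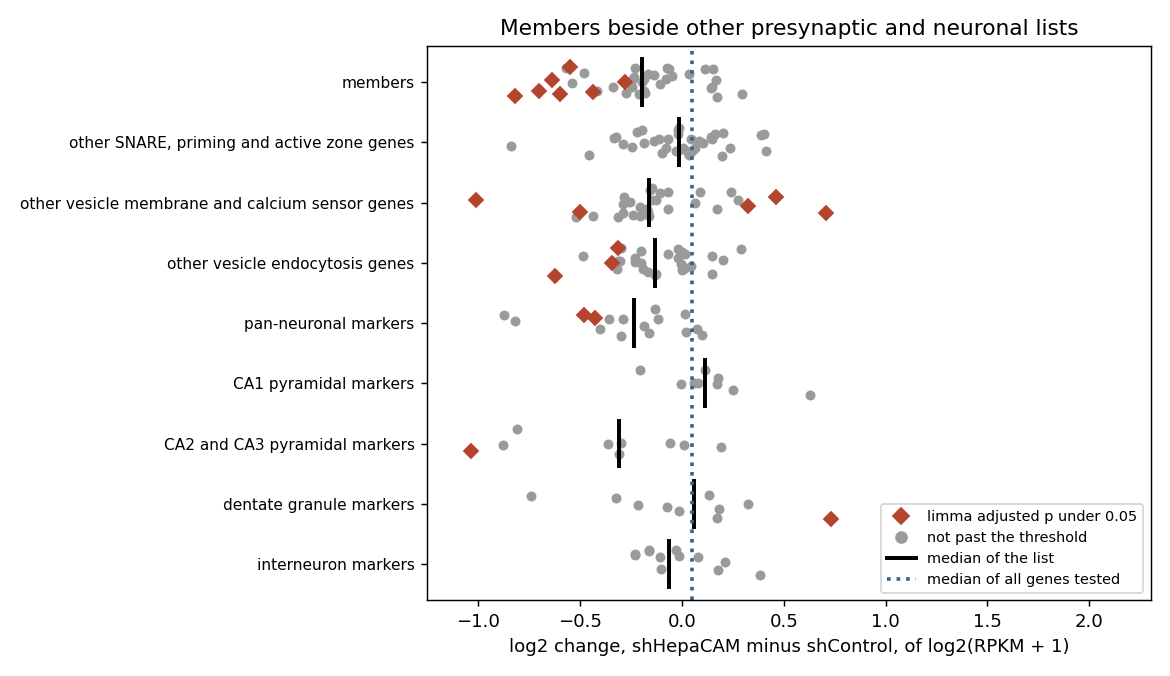
Log2 change (x axis, shHepaCAM minus shControl, of log2(RPKM + 1)) of each gene tested in the member set and in other presynaptic and neuronal lists (y axis); diamonds passed the limma threshold, solid bars are list medians and the dotted line is the median of all genes tested, 0.05. The members' median is -0.19, that of the pan-neuronal markers -0.24, that of other SNARE, priming and active zone genes -0.01, and that of CA1 markers 0.12.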

How the data were processed

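Hippocampal RNA sequencing gave 6 libraries, 3 shHepaCAM and 3 shControl, grouped by title. The authors deposited RPKM for each library; alignment used TopHat2 2.0.12 with Bowtie2 2.0.6, and build mm39 is named, per the submitters' processing notes. No source used here gives the read counter, annotation or strand setting. Symbols, exon lengths and GC content came from GENCODE M21, on GRCm38, which named 29805 of 29872 genes.

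Whole reads and depth were worked out from the steps of the RPKM values, within 0.01 read; 29689 genes resolved, including 37 of 38 members (not Syt7). Replicates of a group were never alike within sampling noise (smallest chi-square per degree of freedom 3.71).

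Differences of log2(RPKM + 1) were tested two-sided in R 4.3.3 with limma 3.58.1, trend included, over 13864 genes that averaged at least 1 RPKM, at a Benjamini-Hochberg adjusted p of 0.05. The fit was tested on simulated data. Members and lists were chosen with earlier results of these data known, and no list was tested as a set. Named genes are Hepacam, all members and, from other lists, those past the threshold, at most 4 of a presynaptic and 2 of a marker list by smallest p. Syt5 falls outside that rule and was chosen after its values were seen, and some genes that it names are not reported here. The closing section covers 20 alternatives. Figures used matplotlib 3.10.9 and Python 3.11.15.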

Additional observations from a re-analysis of the deposited data

How the results depend on the processing

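The 7 members called lower kept their direction in all 20 alternatives, and Bsn kept its call in 18. The number called lower moved by over 1.5 times in several: it was 1 with no filter on low values, 3 in limma without trend, 4 with the GC and length trend removed and 0 with shControl replicate 1 and shHepaCAM replicate 3, the libraries with little choroid plexus RNA, left out together. With single libraries left out it ran from 0 (without shControl replicate 3) to 8 (without shHepaCAM replicate 1). It was 1 without shControl replicate 1, shControl replicate 2 or shHepaCAM replicate 3. Over all genes tested, those called lower ran in the same fits from 19 (without shControl replicate 3) to 325 (without shHepaCAM replicate 1). The number called higher, 0, became 1 (Synpr) with a filter at 5 RPKM, in limma-voom on whole reads, at an adjusted p threshold of 0.1 and with protein-coding genes only. The members' median ran from -0.27 to -0.14 over the alternatives, and the median of all genes from -0.03 to 0.06. Of the 30 members not called, 8 (Vamp2, Cplx1, Napb, Rab3a, Syt2, Sypl, Sv2c and Slc17a6) changed direction in some alternative, all without a call, and 6 were called in some alternative.

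Replicate numbers did not pair the libraries: same-numbered libraries' deviations correlated at -0.21, 0.015 and -0.145, and no library correlated best with its own number. With the replicate block the number called lower was 1, and 1 with the block and the GC and length trend removed. For Hepacam the change was -0.54 with the same libraries left out (limma adjusted p = 0.0664), and with single libraries left out it ran from -0.68 to -0.58, missing the threshold without shControl replicate 3 (-0.62, limma adjusted p = 0.0534). Some settings hold fewer libraries or a larger number of genes, and the causes of these moves were not tested. Low members such as Slc17a6, with 106 to 597 reads, and Syn3, with 103 to 200, carry the most counting error.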
